A study of Mus musculus with 6 samples.

Results

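Adult heart cardiomyocytes without the long non-coding RNA lncSync were compared with wild-type adult cardiomyocytes by small RNA sequencing. The comparison took every library labelled adult, which gave 4 of the 6 libraries of the series, and every mature microRNA (miRNA) of the count table, which was 1974 of 3208 features. The other 1234 features were hairpins. The knockout group was 2 libraries of genotype LncSync-/-, and the control group was 2 libraries of genotype wild type. All 4 came from heart of strain C57BL/6 mice, with cardiomyocyte given as the cell type. No treatment, age beyond adult, sex or number of animals is given, and the way the null allele was made and the position of the lncSync gene are not given either. Nothing says that the 2 libraries of a genotype came from different animals, so each p-value below measures the spread between libraries, and that spread may be technical. The knockout of the long RNA itself could not be checked, because a miRNA table does not measure it.

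MiRNAs are short RNAs cut from the 5p or 3p side of a hairpin precursor, and they repress messenger RNAs that pair with their seed, bases 2 to 8. Neighbouring hairpins are often cut from a single long transcript, and family members with the same seed share predicted targets. In the heart, miR-1 and miR-133 are the classical muscle miRNAs, while miR-208 and miR-499 lie within myosin heavy chain genes. The miR-322, miR-503 and miR-351 hairpins are X-linked. MiR-322 and miR-503 (miR-424 and miR-503 in human) are known as brakes on the cell cycle and as miRNAs of muscle differentiation. MiR-322-5p carries the seed of the miR-15/16 family.

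The results turned on 6 mature arms from 3 hairpins on the minus strand of chromosome X. In RefSeq for GRCm38.p6, the assembly also called mm10, Mir322 lies at chrX:53054255-53054349, Mir503 at chrX:53053984-53054054 and Mir351 at chrX:53053255-53053353. All 3 hairpins fall inside the RefSeq gene C430049B03Rik, at chrX:53053112-53057190. The mature sequences are shown 5′ to 3′ from RefSeq, with the seed in capitals, because the seed decides which other miRNAs of the heart carry the same targeting bases.
miR-322-5p: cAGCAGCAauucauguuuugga
miR-322-3p: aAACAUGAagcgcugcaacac
miR-503-5p: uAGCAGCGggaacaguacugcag
miR-503-3p: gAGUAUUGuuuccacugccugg
miR-351-5p: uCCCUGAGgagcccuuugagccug
miR-351-3p: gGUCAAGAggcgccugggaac

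The members of the shared seeds are set beside them, since they were counted in the same libraries. The seed of miR-322-5p, AGCAGCA, is also that of miR-16-5p and its relatives, and the seed of miR-351-5p, CCCUGAG, is that of miR-125a-5p and miR-125b-5p. The seed of miR-503-5p differs from that of miR-16-5p and miR-322-5p by A8G, counted from the 5′ end of the mature miRNA.
miR-16-5p: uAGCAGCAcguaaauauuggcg
miR-15a-5p: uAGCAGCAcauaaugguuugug
miR-15b-5p: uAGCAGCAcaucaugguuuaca
miR-195a-5p: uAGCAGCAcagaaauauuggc
miR-497a-5p: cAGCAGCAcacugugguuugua
miR-125a-5p: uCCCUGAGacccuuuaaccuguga
miR-125b-5p: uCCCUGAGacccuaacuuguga

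A further group of 4 hairpins lies 3767 bases downstream on the same strand, next to the 3 above. Mir542 is at chrX:53049403-53049487, Mir450-2 at chrX:53048299-53048367, Mir450-1 at chrX:53048154-53048244 and Mir450b at chrX:53047997-53048078. Their main arms carry seeds that none of the 6 arms above has.
miR-542-5p: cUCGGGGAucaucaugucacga
miR-542-3p: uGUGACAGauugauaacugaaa
miR-450a-5p: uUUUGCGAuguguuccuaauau
miR-450b-5p: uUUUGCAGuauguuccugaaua
miR-450b-3p: aUUGGGAAcauuuugcaugcau

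Mature counts came to 17933524 and 16794821 in wild-type replicates 1 and 2, and to 14347091 and 17608587 in knockout replicates 1 and 2. A library with 0 counts of a miRNA could hold up to 3 counts, or 0.167 to 0.209 CPM (mature counts scaled to a common library size), and this limit covers counting error only. At least 1 count was seen for 897, 768, 618 and 825 miRNAs in the same order, and for 1046 of 1952 in any adult library. Levels below are CPM scaled by TMM (trimmed mean of M values, a factor per library that lines up the bulk of the miRNAs). The TMM factor of knockout replicate 2 was 0.715, against 0.992 to 1.20 in the other 3 libraries, so knockout replicate 2 stood apart before any miRNA was tested. Its own 10 most abundant miRNAs made 72.4% of its counts, against 61.2% to 67.2% in the others.

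The profile was that of heart muscle in each of the 4 libraries. The muscle miRNAs miR-133a-3p and miR-1a-3p were the most abundant in wild type. MiR-133a-3p made 15.3% and 16.6% of wild-type counts and 18.3% and 12.2% of knockout counts. MiR-1a-3p made 14.5% and 15.1% of wild-type counts, but 8.15% in knockout replicate 1 and 25.6% in knockout replicate 2. The knockout replicates thus lay on both sides of the wild-type pair, and the fold of miR-1a-3p did not pass (log2 fold 0.63 with SE 0.71, and adjusted p = 0.999 by edgeR). Next came miR-143-3p, best known from smooth muscle, at 6.58% to 11.05% of counts, then miR-30a-5p at 4.01% to 6.8% and miR-378a-3p, which lies in the gene of the mitochondrial coactivator PGC-1beta, at 2.89% to 8.04%. Between 4 and 6 miRNAs made up 50% of each library's counts.

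A set of 4 mature miRNAs was lower in the adult knockout and none was higher. In edgeR's quasi-likelihood test over 544 miRNAs with enough counts, the 4 were miR-322-3p, miR-351-5p, miR-503-3p and miR-503-5p at a Benjamini-Hochberg adjusted p under 0.05. That was 0.735% of the miRNAs tested in the lower direction and 0% in the higher direction. An unadjusted p under 0.05 was reached by 16 miRNAs, or 2.94%, and all 6 arms of the 3 hairpins were among them. The median log2 fold of all 544 was 0.077, and 307 (56.4%) were positive. TMM places the bulk of the profile near 0 by construction, so this median is no finding. Knockout values lay below both wild types for 68 miRNAs (12.5%) and above both for 53 (9.74%). DESeq2 called the same 4, while limma-voom called 0, with an adjusted p of 0.0571 for miR-322-3p and for miR-351-5p.

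**Figure D1:**
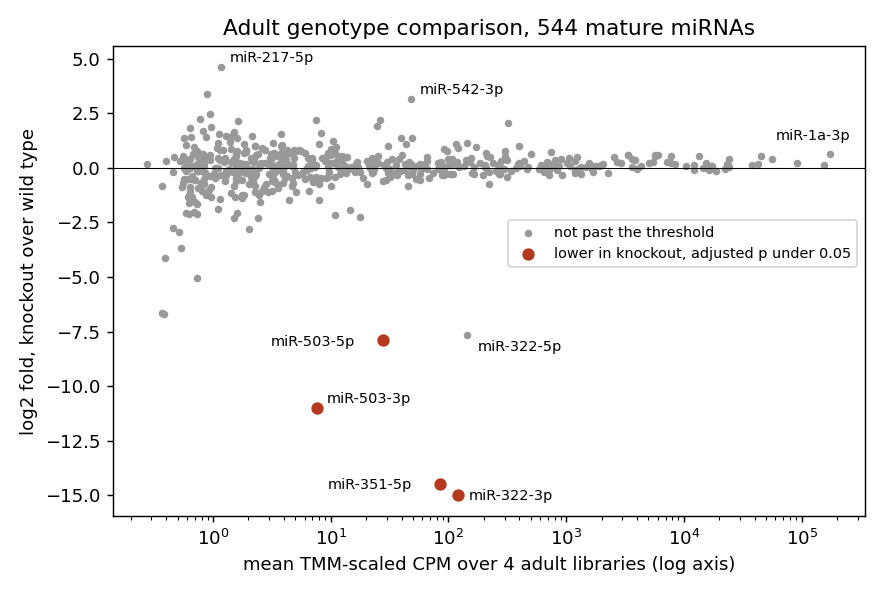
Log2 fold of knockout over wild type (vertical axis) against the mean TMM-scaled CPM over the 4 adult libraries (horizontal log axis) for 544 mature miRNAs, 1 point each. The 4 red points are the miRNAs past the threshold, all at log2 folds under -7, and miR-322-5p lies beside them without passing.

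MiR-322-3p had 5576 and 3617 counts in the wild types and 0 in both knockout replicates. With a floor of 3 counts over the knockout group it was at least 2820-fold lower (fitted log2 fold -14.99 with SE 0.96, and adjusted p = 0.000908 by edgeR). MiR-351-5p, a mouse relative of miR-125, had 3738 and 2664 counts in the wild types and 0 in both knockouts, so its level was at least 1964-fold lower (fitted log2 fold -14.47 with SE 0.94, and adjusted p = 0.000908 by edgeR). Both arms went from over 150 CPM in each wild-type library to no count at all. With 0 counts in both knockouts the counts do not fix the size of a fitted fold, so its SE describes the test.

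The arms of miR-503, which targets cyclins in cultured cells, were less abundant in wild type. MiR-503-5p had 1237 and 865 counts in the wild types and 7 and 0 in the knockouts. Its share of all counts was 276-fold lower (95% counting interval 134 to 688). Counting intervals here and below pool the 2 libraries of a genotype and leave out the spread between them. MiR-503-5p passed (fitted log2 fold -7.91 with SE 1.02, and adjusted p = 0.0128 by edgeR). MiR-503-3p had 322 and 260 counts in the wild types and 0 in both knockouts, at least 179-fold lower (fitted log2 fold -11.03 with SE 1.06, and adjusted p = 0.00632 by edgeR). For both arms the groups were far apart and the wild-type replicates were close to each other, at 58.6 and 51.9 CPM for miR-503-5p and 15.2 and 15.6 CPM for miR-503-3p.

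MiR-322-5p had 5849 and 4863 counts in the wild types, 47 in knockout replicate 1 and 0 in knockout replicate 2. Its share of all counts over the pooled libraries was 210-fold lower (95% counting interval 158 to 286). That interval leaves out the split of 47 and 0. The arm did not pass (log2 fold -7.64 with SE 1.41, and adjusted p = 0.0949 by edgeR). The groups did not overlap, and the SE was the largest among the 5 abundant arms. The call depended on the scaling and the filter. It also passed without the filter on low counts. With median-of-ratios size factors the edgeR adjusted p was 0.0476, and with plain library totals it was 0.00841. MiR-351-3p, the rare arm, had 11 and 17 counts in the wild types and 0 in the knockouts. That was at least 8.59-fold lower, and its edgeR adjusted p was 0.999.

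The residual reads given to mature arms of the 3 hairpins were all in knockout replicate 1 and all from 5p arms. In wild type the 5p arm made 51.2% and 57.3% of the miR-322 counts, but 47 of 47 counts in knockout replicate 1 were 5p (100%, exact 95% interval 92.5% to 100%). The miR-503 reads were 79.3% and 76.9% 5p in wild type. Knockout replicate 1 held 7 of 7 (exact 95% interval 59.0% to 100%), an interval that contains the wild-type shares. For miR-322, then, the leftover reads were all 5p where the wild-type reads were mixed. The interval treats reads as independent, and they come from 1 library. That library also held counts from nearly a single arm of another hairpin, an example chosen after its values were seen. For miR-382 it held 114 counts of the 5p arm and 1 of the 3p arm. The 5p and 3p counts were 63 and 66, and 48 and 31, in wild type and 34 and 38 in knockout replicate 2. Whether the miR-322 reads share a trait of that library was not tested.

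The counts given to hairpin features showed the same 3 precursors, though they contain the reads of the arms and are not independent of them. Of 474 hairpins tested, 3 were lower (0.633%) and 0 higher (0%), with 17 at an unadjusted p under 0.05 (3.59%). Mir-351 had 3749 and 2681 counts in wild type against 1 and 0. Mir-503 had 1559 and 1125 against 7 and 0, and mir-322 had 11429 and 8483 against 47 and 0. The fitted log2 fold of mir-322 as a hairpin was -8.44 (SE 1.35) and passed (edgeR adjusted p = 0.0241). With either wild-type library left out only mir-351 remained past the threshold, and with plain library totals mir-351 and mir-503 did.

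The downstream miR-542 and miR-450 hairpins did not pass in either direction. Without the filter on low counts, miR-542-3p (adjusted p = 1.6e-05 by edgeR) and miR-450a-5p (adjusted p = 0.0081 by edgeR) passed as higher. MiR-542-5p had 154 and 228 counts in wild type and 510 and 612 in the knockouts, or 7.29 and 13.7 CPM against 29.7 and 48.6 CPM. It was the one arm of 7 whose knockout values lay above both wild types (log2 fold 1.90 with SE 0.55, and adjusted p = 0.911 by edgeR). Its partner miR-542-3p had 154 and 206 counts in wild type, 131 in knockout replicate 1 and 2087 in knockout replicate 2 (log2 fold 3.14 with SE 1.21, and adjusted p = 0.999 by edgeR).

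The miR-450 arms had the pattern of miR-542-3p. MiR-450a-5p, the most abundant of the 7, was at 142 and 106 CPM in wild type, 87.9 CPM in knockout replicate 1 and 944 CPM in knockout replicate 2. MiR-450b-3p was at 32.5 and 21.4 CPM against 25.7 and 116 CPM, and miR-450b-5p at 3.74 and 4.44 CPM against 1.69 and 23.4 CPM. Knockout replicate 2 was thus the highest library for all 7 arms, and knockout replicate 1 lay within or below the wild types for 6 of them. All 7 fitted log2 folds were positive, between 1.39 and 3.14. Without knockout replicate 2 the folds of 6 arms turned negative. They were then -0.42 for miR-542-3p, -0.58 for miR-450a-5p, -0.15 for miR-450b-3p, -1.34 for miR-450b-5p, -2.75 for miR-450a-1-3p and -0.87 for miR-450a-2-3p.

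**Figure D2:**
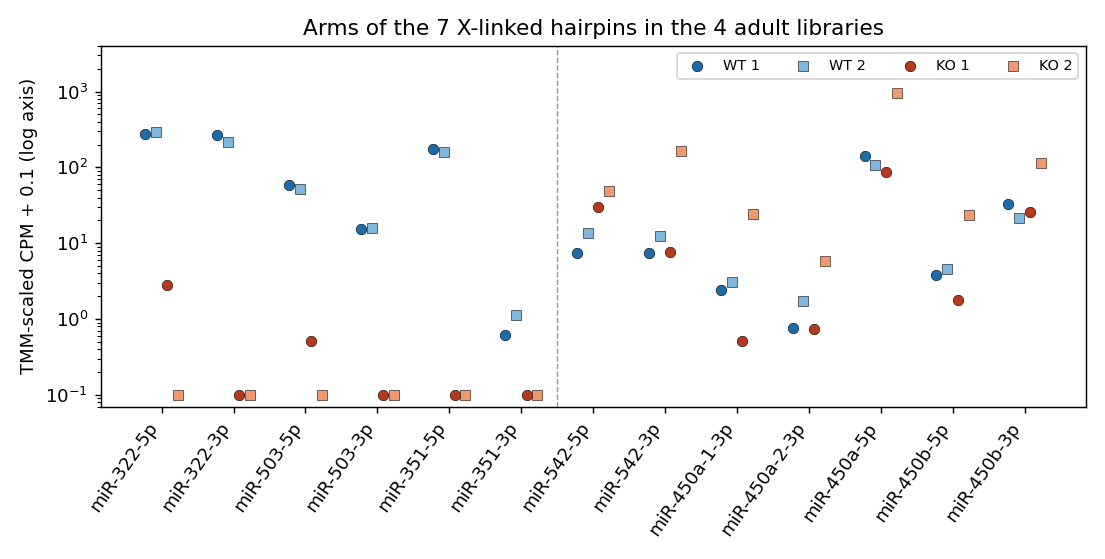
TMM-scaled CPM plus 0.1 (log axis) of the arms of the 7 X-linked hairpins in the 4 adult libraries, with wild type (WT) in blue and knockout (KO) in red. Left of the dashed line, the arms of miR-322, miR-503 and miR-351 are at or near 0 in both knockouts, where a point at 0.1 is a count of 0. Right of it, the miR-542 and miR-450 arms are highest in knockout replicate 2, and only miR-542-5p has both knockouts above both wild types.

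Other arms from chromosome X showed no call. Outside the 7 hairpins, 39 tested arms were placed on chromosome X alone by their RefSeq sequence. Their median log2 fold was 0.15, against 0.075 for 415 arms placed on other chromosomes. Arms without a RefSeq sequence, such as miR-532-5p, have no placement and are in neither count. The cluster in an intron of Clcn5, which holds miR-188, miR-362, miR-500, miR-501 and miR-532, had 0 of 9 tested arms past the threshold, a median of 0.044 and 1 arm above and 1 below both wild types. Of all 52 tested arms placed on chromosome X alone, those past the threshold were the 4 from miR-322, miR-503 and miR-351.

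The seeds of the lost arms differed in how much of them remained. Counts were summed over mature miRNAs with the same bases 2 to 8, and 470 groups were tested. A miRNA without a RefSeq sequence, such as miR-1a-3p, formed a group of its own, and these are counted in the 470. In edgeR 3 groups were lower (0.638%), 0 were higher (0%), and 14 had an unadjusted p under 0.05 (2.98%). Each of the 3 had a single member. They were AACAUGA with miR-322-3p, AGUAUUG with miR-503-3p, and AGCAGCG with miR-503-5p. For these seeds no other listed miRNA with a sequence could supply counts. With seeds of bases 2 to 7, 447 groups were tested and 2 passed, those of miR-322-3p and miR-503-3p. MiR-503-5p then shares its seed with miR-16-5p, and its call was lost.

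The seed of miR-322-5p stayed populated by the miR-15/16 family. MiR-322-5p made 4.18% and 4.14% of AGCAGCA counts in wild type, 0.0469% in knockout replicate 1 and 0 in knockout replicate 2. MiR-16-5p, which with miR-15a lies in a tumour suppressor locus, made 72.3% and 73.4% in wild type and 81.7% and 79.3% in the knockouts. The members other than miR-322-5p summed to 6341 and 6759 CPM in wild type and to 5830 and 9194 CPM in the knockouts, so the knockouts lay on both sides. The whole group did not pass (log2 fold 0.13 with SE 0.41, and adjusted p = 0.996 by edgeR), and its log2 fold was -0.13 with plain library totals.

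Within that family the range over the 4 libraries was wider for miR-16-5p and miR-195a-5p than the 277 and 292 CPM of miR-322-5p in wild type, and narrower for miR-497a-5p, miR-15a-5p and miR-15b-5p. MiR-16-5p was at 4787 and 5177 CPM in wild type and 4767 and 7293 CPM in the knockouts. MiR-497a-5p and miR-195a-5p, which come from a shared locus on chromosome 11, were at 355 and 366 CPM and at 461 and 468 CPM in wild type. Knockout replicate 1 had 135 and 272 CPM of them, and knockout replicate 2 had 403 and 685 CPM. Of the 10 tested arms of the miR-15/16 list, 0 passed in either direction, the median log2 fold was 0.052, and 2 lay above both wild types. Those were the rare passenger arms miR-15a-3p and miR-16-2-3p, at 0.661 to 6.69 CPM.

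The seed of miR-351-5p was carried almost wholly by the miR-125 pair. MiR-351-5p made 0.865% and 0.959% of CCCUGAG counts in wild type and 0 in the knockouts. MiR-125b-5p was at 16117 and 12538 CPM in wild type and 19365 and 13904 CPM in the knockouts, and miR-125a-5p at 4170 and 3984 CPM against 5037 and 2925 CPM. The group did not pass (log2 fold 0.14 with SE 0.40, and adjusted p = 0.996 by edgeR). An SE of 0.40 to 0.41 on the log2 scale is far wider than a loss of 1% to 4% of a seed's counts, so a change of that size in the summed seed was not detectable with these replicates.

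**Figure D3:**
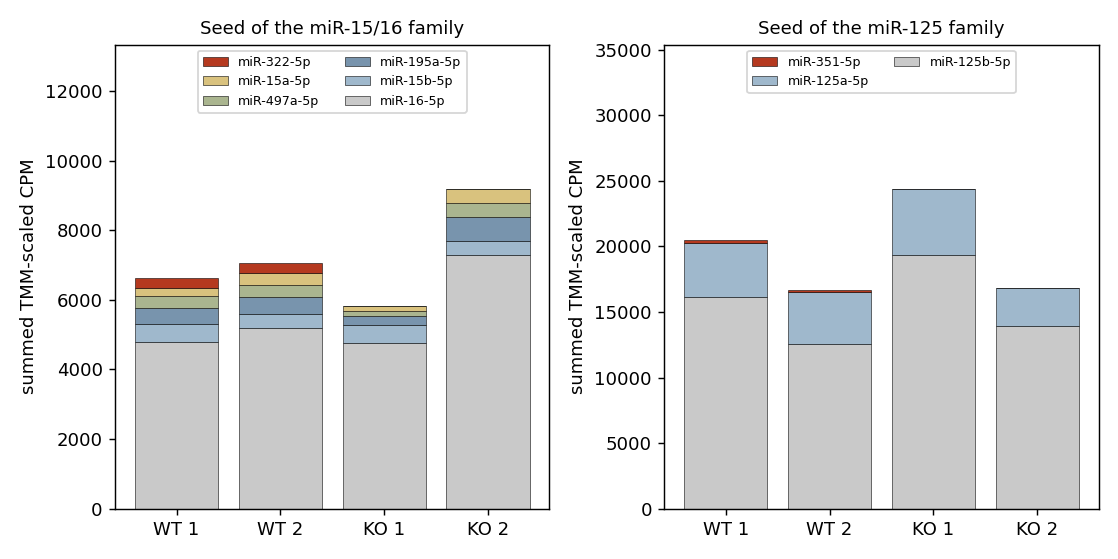
Summed TMM-scaled CPM (linear axis from 0) of the miRNAs with over 100 counts that share the seed of miR-322-5p (left) and of miR-351-5p (right) in each adult library. The red segment is the X-linked arm, which is 4.18% and 4.14% of the left bars and 0.865% and 0.959% of the right bars in wild type (WT) and is not visible in the knockouts (KO).

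Arm use of other hairpins was compared through the log2 ratio of 5p to 3p counts, which does not depend on scaling between libraries. Of 161 hairpins, 0 passed in limma (0% in each direction, smallest adjusted p = 0.996), and 2 had an unadjusted p under 0.05 (1.24%). The 5p arm was the larger in all 4 libraries for 78 hairpins and the 3p arm for 61, while 22 changed between libraries. Knockouts lay above both wild types for 13 hairpins (8.07%) and below both for 16 (9.94%).

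The 2 were miR-146b and miR-877. For miR-146b the log2 ratio was higher by 2.56 (SE 0.75, limma adjusted p = 0.996), resting on 9 and 10 counts of the 3p arm in wild type and 0 and 1 in the knockouts. MiR-877 is a mirtron whose hairpin is a spliced intron. Its 5p arm made 36.3% and 33.7% of counts in wild type and 73.0% and 75.0% in the knockouts (log2 ratio higher by 2.32, SE 0.71, limma adjusted p = 0.996). These shares rest on 40 to 135 counts per library. MiR-335, from an intron of the imprinted gene Mest, had 5p shares of 65.6% and 46.9% against 76.2% and 79.2%, which also did not pass. MiR-542 had 50% and 52.5% in wild type but 79.6% in knockout replicate 1 and 22.7% in knockout replicate 2, so its knockout replicates differed in opposite directions from wild type. The median absolute difference of the log2 ratio was 1.17 between the knockout replicates, 0.69 between the wild-type replicates and 0.41 between the genotype means.

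Lists of miRNAs by family, locus or cell type are described by counts and medians, and no list was tested as a whole. With plain library totals the median log2 fold of all 544 was -0.12 in place of 0.077, so a list's median is read relative to that of all miRNAs. Leaving out 1 library changed the sign of the median for 13 of 17 lists examined, and for 9 of them when it was knockout replicate 2. Heart and skeletal muscle miRNAs, miR-206 among them, were counted as a list of 16, of which 10 were tested. Of the 10, 0 passed and 7 had a positive log2 fold, with a median of 0.15. MiR-133b-3p was at 9476 and 10549 CPM in wild type and 9458 and 12065 CPM in the knockouts. MiR-208a-3p, made from an intron of the alpha myosin heavy chain gene, was at 51.4 and 142 CPM against 96.9 and 122 CPM. MiR-208b-3p, from the beta myosin gene that adult mouse ventricle expresses little, was at 3.17 and 4.38 CPM against 1.11 and 11.8 CPM. MiR-499-5p, from a further myosin gene, was at 4136 and 4914 CPM against 3161 and 10673 CPM. The groups overlapped for all 10 members. In 5 of them knockout replicate 1 was below both wild types, and in 6 knockout replicate 2 was above both. The same counts were not made over all 544 miRNAs.

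Among miRNAs named in work on cardiac stress, 0 of 22 tested passed and the median log2 fold was 0.061. MiR-21a-5p, a fibroblast-rich miRNA of fibrosis, was at 7094 and 5544 CPM in wild type and at 3435 and 15273 CPM in the knockouts. MiR-132-3p was at 126 and 97.7 CPM against 100.1 and 84.9 CPM, and miR-34a-5p at 735 and 675 CPM against 1228 and 601 CPM. The knockout values surrounded the wild types for miR-21a-5p and miR-34a-5p.

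The miR-29 list, known for repressing collagens, had 0 of 7 tested arms past the threshold and a median of 0.055. The miR-30 list, among the most abundant of the heart, had 0 of 11, a median of 0.17 and no arm with both knockouts on one side of the wild types. MiR-30a-5p was at 46643 and 49581 CPM in wild type and at 33509 and 95163 CPM in the knockouts. The miR-378 list had 0 of 5 past the threshold and a median of 0.50, which was 0.12 without knockout replicate 1 and 0.27 without wild-type replicate 1. MiR-378c was at 10149 and 11878 CPM against 18204 and 13478 CPM (log2 fold 0.52 with SE 0.41, and adjusted p = 0.999 by edgeR), and miR-378b and miR-378d also lay above both wild types. These were 3 of 5, where the share over all miRNAs was 9.74%. The most abundant member, miR-378a-3p, overlapped, at 32586 and 41544 CPM in wild type and 67112 and 40378 CPM in the knockouts, and so did miR-378a-5p. Members of this family differ by few bases and can share reads, so they are not 5 separate measurements.

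The miR-181 list, which acts in immune cells and on mitochondrial genes, had 0 of 10 past the threshold, 9 positive folds and a median of 0.42. The median was 0.067 without wild-type replicate 1, 0.23 without knockout replicate 2 and 0.69 without knockout replicate 1. MiR-181a-5p was at 3618 and 5551 CPM in wild type and at 7562 and 5806 CPM in the knockouts (log2 fold 0.54 with SE 0.44, and adjusted p = 0.999 by edgeR). The second knockout value exceeded the higher wild type by little.

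The imprinted Dlk1-Dio3 miRNAs of chromosome 12, expressed from the maternal allele and mostly in the embryo, had the lowest median among lists with 10 or more tested arms, at -0.42. Of 52 tested arms 0 passed, 10 had a positive log2 fold, 9 (17.3%) lay below both wild types and 0 above, where the shares over all miRNAs were 12.5% and 9.74%. MiR-541-5p was at 26.2 and 24.1 CPM in wild type and 14.3 and 16.3 CPM in the knockouts (log2 fold -0.72 with SE 0.45, and adjusted p = 0.999 by edgeR). MiR-337-5p was at 14.6 and 11.1 CPM against 5.94 and 8.66 CPM. MiR-127-3p, the most abundant arm, was at 93.1 and 103 CPM against 60.2 and 96.7 CPM. Knockout replicate 1 was below both wild types for 35 of the 52 arms and above both for 6, while knockout replicate 2 was below for 15 and above for 15. Such counts by single library were not made over all miRNAs, so they cannot be read as particular to this locus. Without knockout replicate 2 the median was -1.13, and without knockout replicate 1 it was -0.11.

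**Figure D4:**
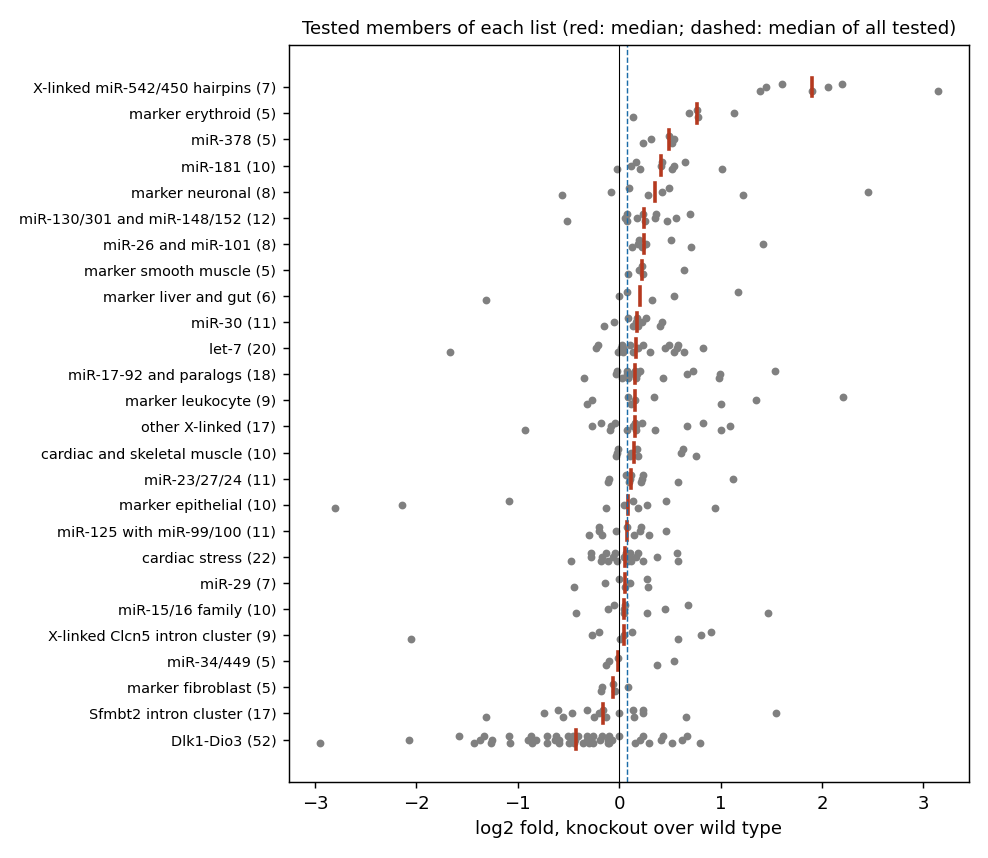
Log2 fold of knockout over wild type for each tested arm (grey points) of the lists with at least 5 tested arms, the number in parentheses, leaving out the miR-322, miR-503 and miR-351 arms. Red bars are list medians, which run from -0.42 for Dlk1-Dio3 to 1.90 for the miR-542/450 arms, and the dashed line is the median of all 544, at 0.077. No point in the plot passed the test.

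Each list of markers of other cell types had counts in every library, though single markers had none in some. MiR-126a-3p, the endothelial miRNA, made 2.64% and 2.11% of wild-type counts and 1.46% and 2.65% of knockout counts. In RNA from a whole sample, fewer cells of a type and less RNA per cell cannot be told apart. Summed over the list, endothelial arms were at 25304 and 23702 CPM in wild type and 13767 and 43479 CPM in the knockouts. Smooth muscle arms were at 60376 and 116700 CPM against 70517 and 136070 CPM, with 0 of 5 past the threshold. Fibroblast arms (miR-199 and miR-214) were at 3147 and 1948 CPM against 1858 and 2947 CPM, with 0 of 5 past it. For all 3 cell types the genotypes overlapped in the summed level.

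The erythroid list, counted for blood left in the tissue, summed to 13335 and 10474 CPM in wild type and to 18600 and 7908 CPM in the knockouts, with 0 of 5 past the threshold and a median log2 fold of 0.77 that turned to -0.43 without knockout replicate 1. MiR-451a, the red cell miRNA cut by Argonaute rather than Dicer, was at 90.5 and 91.5 CPM in wild type, 335 CPM in knockout replicate 1 and 63.1 CPM in knockout replicate 2. The leukocyte list summed to 2415 and 2170 CPM in wild type and to 2400 and 2602 CPM in the knockouts, with 0 of 9 past the threshold and a median of 0.15. MiR-223-3p, the neutrophil and monocyte miRNA, was at 336 and 191 CPM against 682 and 378 CPM (log2 fold 1.01 with SE 0.51, and adjusted p = 0.999 by edgeR). MiR-142a-5p, found across blood cells, was at 25.6 and 18.5 CPM against 40.2 and 72.5 CPM (log2 fold 1.35 with SE 0.50, and adjusted p = 0.999 by edgeR). Both lay above the wild types in each knockout, which made 2 of 9 tested arms, while 1, miR-223-5p, lay below both. Over all miRNAs 9.74% lay above both wild types and 12.5% below. The genotypes overlapped for miR-150-5p of lymphocytes, at 621 and 644 CPM against 617 and 727 CPM. They also overlapped for miR-142a-3p (14.5 and 4.08 CPM against 75.1 and 11.3 CPM) and miR-146a-5p (1067 and 973 CPM against 558 and 1082 CPM). The part of blood cells in any other difference was not tested.

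The neuronal list summed to 1432 and 1333 CPM in wild type and to 1416 and 1348 CPM in the knockouts, with 0 of 8 past the threshold and a median of 0.35, and its defining arm miR-124-3p was at 0.238 to 0.661 CPM in 3 libraries and 0 in knockout replicate 1. The liver and gut list summed to 626 and 633 CPM against 426 and 895 CPM, with 0 of 6 past the threshold and a median of 0.20, and with the liver miRNA miR-122-5p at 0.420 to 3.20 CPM. The pancreatic arms were near the floor, with sums of 1.42 and 2.88 CPM in wild type and 6.05 and 8.11 CPM in the knockouts, and 0 of 3 tested passed. Of these, miR-375-3p overlapped between the genotypes, at 1.04 and 2.70 CPM in wild type and 3.72 and 1.83 CPM in the knockouts. MiR-217-5p had 0 and 3 counts in wild type and 28 and 36 in the knockouts, a ratio of 23.2 (95% counting interval 7.58 to 115). It did not pass (fitted log2 fold 4.61 with SE 1.49, and adjusted p = 0.999 by edgeR). MiR-216b-5p, from the same region of chromosome 11, had 6 and 0 counts against 12 and 32, a ratio of 7.97 (3.38 to 22.9). Both miR-217-5p and miR-216b-5p met the filter on low counts through the knockout libraries alone. That filter favours a high ratio for such arms, so the 2 ratios and their intervals are no support for a difference. Neighbouring miR-216a-5p was seen in knockout replicate 2 alone.

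The epithelial list summed to 151.7 and 202 CPM in wild type and to 171 and 375 CPM in the knockouts, mostly from miR-203-3p. It had 0 of 10 past the threshold and a median of 0.090, but miR-200b-3p, miR-200a-3p and miR-429-3p, whose hairpins lie within 1846 bases on chromosome 4 (chr4:156053905-156055750), were each below both wild types in both knockouts. MiR-200b-3p was at 13.8 and 21.4 CPM in wild type and 0.873 and 7.15 CPM in the knockouts (log2 fold -2.14 with SE 0.92, and adjusted p = 0.999 by edgeR). MiR-200a-3p was at 5.16 and 8.65 CPM against 1.51 and 5.01 CPM. MiR-429-3p was at 2.70 and 4.32 CPM against 0 and 1.03 CPM. This trio was singled out after its values were seen.

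Their paralogue miR-200c-3p on chromosome 6 was at 18.6 and 19.3 CPM in wild type and 32.4 and 19.9 CPM in the knockouts, above both wild types. In knockout replicate 2 it exceeded the higher wild type by little. Its neighbour miR-141-3p overlapped between the genotypes, at 0.331 and 1.20 CPM in wild type and 0.524 and 0.874 CPM in the knockouts. The difference between the 2 loci was not tested. The 3 mature sequences below share the seed AAUACUG and are shown because their values lay on different sides of the wild types.
miR-200b-3p: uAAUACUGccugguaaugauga
miR-429-3p: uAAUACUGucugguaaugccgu
miR-200c-3p: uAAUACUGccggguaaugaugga

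Further miRNAs with small p at a mean CPM of at least 10 did not pass either. MiR-1195 had 302 and 745 counts in wild type and 130 and 59 in the knockouts (log2 fold -2.26 with SE 0.68, and adjusted p = 0.918 by edgeR), though it passed without the filter on low counts (adjusted p = 0.0352 by edgeR). MiR-6240 was at 4.69 and 41.9 CPM in wild type and 9.84 and 2.46 CPM in the knockouts. MiR-326-3p was at 45.2 and 71.3 CPM against 31.5 and 34.8 CPM. On the higher side, miR-374b-5p, one of the X-linked arms counted above, from the Ftx long RNA near Xist, had 752 and 333 counts against 1127 and 668 (log2 fold 1.09 with SE 0.49, and adjusted p = 0.999 by edgeR).

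The knockout replicates differed from each other more than the wild types did. Over 135 miRNAs of mean CPM at least 100, the median absolute log2 ratio was 0.71 between the knockout replicates and 0.28 between the wild types. A difference of at least 4-fold was seen for 11 of 135 between knockouts and for 0 between wild types. The knockout replicates lay on both sides of the wild-type pair for 69 of 135 miRNAs (51.1%), and the wild types lay on both sides of the knockout pair for 16 (11.9%). Over all 544 tested the shares were 36.2% and 10.1%.

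MiRNAs higher in knockout replicate 2 were led by miR-450a-5p and then by miR-101a-3p, which targets the Ezh2 methyltransferase. MiR-101a-3p was at 266 CPM in knockout replicate 1 and 1596 CPM in replicate 2, with 545 and 593 CPM in wild type. MiR-340-5p was at 46.6 and 267 CPM in the knockouts and at 78.8 and 69.4 CPM in wild type. Among those higher in knockout replicate 1 were miR-451a, miR-320-3p and members of let-7. MiR-320-3p, whose precursor does not need Drosha, was at 613 and 142 CPM in the knockouts and at 291 and 154 CPM in wild type. MiR-423-5p was at 239 and 79.7 CPM against 125 and 120 CPM in wild type.

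The let-7 family, which restrains growth genes in differentiated cells, divided between these patterns although its 5p arms share a seed. Let-7c-5p was at 6460 CPM in knockout replicate 1 and 1551 CPM in replicate 2, a ratio of 4.17, while the wild types were at 2861 and 2532 CPM. The ratio of knockout replicate 1 to replicate 2 was 4.10 for let-7b-5p, 3.46 for let-7a-5p, 3.19 for let-7d-5p and 2.31 for let-7e-5p. For let-7f-5p and let-7g-5p it was 0.858, and for miR-98-5p it was 0.808. Let-7f-5p was at 22463 and 26169 CPM in the knockouts and 21062 and 26418 CPM in wild type. Of 20 tested let-7 arms 0 passed the genotype test, 16 had a positive fold and the median was 0.16.

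The spread between the knockout replicates moved with base composition. Across 113 abundant miRNAs with a RefSeq sequence, the log2 ratio of knockout replicate 1 to 2 had a Pearson r of 0.35 and a Spearman rho of 0.37 with the GC content of the mature miRNA. The same correlations for the wild-type pair were -0.00060 and -0.012. The genotype log2 fold had a Pearson r of -0.084 and a Spearman rho of -0.34 with GC content, and its median went from 0.42 under 40% GC to -0.087 in the richest group. These are across miRNAs of the same libraries, which are not independent, and they carry no p. The median log2 ratio of knockout replicate 1 to 2 was -0.96 for 19 miRNAs under 40% GC, -0.38 for 52 at 40% to under 50%, 0.24 for 37 at 50% to under 60% and 0.29 for 5 above that. Between wild types the medians stayed within -0.03 and 0.08.

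A pair that differed in opposite directions between the knockout replicates is shown as an example chosen after its values were seen, with the seed in capitals. MiR-340-5p has 27.3% GC and miR-423-5p has 56.5%. The other arm of that hairpin, miR-423-3p, has 65.2% GC and a log2 ratio of knockout replicate 1 to 2 of -0.075, so the relation did not hold for each miRNA.
miR-340-5p: uUAUAAAGcaaugagacugauu
miR-423-5p: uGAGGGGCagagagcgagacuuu

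MiR-542-3p and miR-450a-5p, printed above, have 31.8% GC each, and miR-542-5p has 54.5%. After the GC trend of each library was removed, a fit chosen after seeing the data, 463 miRNAs were tested and the same 4 passed. The losses of miR-322-3p, miR-351-5p, miR-503-3p and miR-503-5p were present in both knockout replicates, and each passed without knockout replicate 1 and without knockout replicate 2 (edgeR). Within let-7, let-7c-5p has 40.9% GC and let-7f-5p 31.8%, while let-7a-5p and let-7g-5p both have 36.4%.

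**Figure D5:**
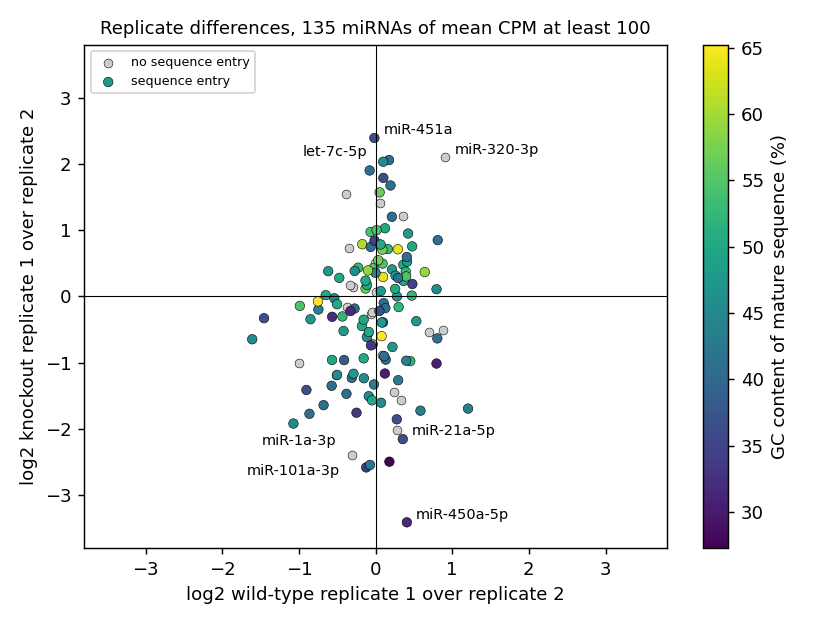
Log2 ratio of knockout replicate 1 to 2 (vertical axis) against that of wild-type replicate 1 to 2 (horizontal axis) for 135 miRNAs of mean CPM at least 100, coloured by the GC content of the mature miRNA where RefSeq has it. The points spread further along the knockout axis (median absolute value 0.71) than along the wild-type axis (0.28), with miR-451a and let-7c-5p at the top and miR-450a-5p at the bottom; miR-322-5p, with 47 and 0 knockout counts, is among the points.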

How the data were processed

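Libraries were made from TRIZOL RNA with the NEXTFLEX Small RNA kit, per the labels' protocols. The authors deposited 1 table of raw read counts per miRNA, not normalised, on mm10 per the submitters' processing notes, and 0 columns belonged to other samples. For the aligner, the counter and reads matching more than 1 miRNA, methods were not given in the sources used here. Mature counts whose adult values agreed within 1% (total at least 20, in at least 3 libraries) were merged, which took 22 of 1974 and left 1952. RefSeq gave a sequence for 1665 of these. The 4 adult libraries were tested with edgeR 4.0.16 in R 4.3.3 (TMM, filterByExpr with a minimum count of 10, glmQLFTest, two-sided, Benjamini-Hochberg 0.05), with 2 residual degrees of freedom and a biological coefficient of variation of 0.537. Arm ratios used limma 3.58.1 on log2((5p + 1)/(3p + 1)) for hairpins with at least 20 counts of the weaker arm and 10 in each library. The SE given with an edgeR log2 fold was its absolute value divided by the square root of the quasi-likelihood F statistic. The fits were tested on counts simulated with far less spread between replicates than these libraries had, so that test does not measure their power here. An exact permutation test of 2 against 2 cannot go below p = 0.333, so none was run. Members and lists were chosen with earlier results of these data known. Named miRNAs were those past the threshold, all arms of the 7 X-linked hairpins, the smallest p, the most abundant overall and in each list, the markers and those that differed most between replicates. Alternatives were other scalings, no filter, DESeq2 1.42.0, limma-voom, a replicate block, unmerged counts, seeds of bases 2 to 7, each library left out, other pseudocounts and, added later, removal of the GC trend.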

Additional observations from a re-analysis of the deposited data

How the results depend on the processing

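The calls of miR-322-3p, miR-351-5p, miR-503-3p and miR-503-5p were kept with other scalings, no filter, DESeq2, the replicate block, unmerged counts, the GC correction and each library left out. Limma-voom called 0 lower (12 at an unadjusted p under 0.05), where miR-322-3p and miR-351-5p had an adjusted p of 0.0571, miR-503-3p had 0.293 and miR-503-5p had 0.320, and the cause was not tested. Without a filter, 1046 miRNAs were tested, 3 were higher (miR-542-3p, miR-450a-5p and miR-142a-3p), and miR-322-5p and miR-1195 joined the lower calls. With seeds of bases 2 to 7, 2 seed groups were lower. With plain library totals the median of all log2 folds was -0.12, against 0.077 with TMM, and the seed group of miR-322-5p had -0.13. Leaving out 1 library gave 0 to 25 mature miRNAs higher and 5 to 31 lower, 0 to 20 seed groups higher and 3 to 27 lower, 0 to 8 arm ratios higher and 0 to 2 lower, and 0 to 19 hairpins higher and 1 to 22 lower. The high counts came without a knockout library (34 mature calls without replicate 1, 45 without replicate 2), where the spread rests on the wild-type pair and the lone knockout is assumed to vary like it. Some log2 folds changed sign without knockout replicate 2, and each is given with its range over the 4 libraries left out in turn: miR-542-3p -0.42 to 4.07, miR-450a-1-3p -2.75 to 3.18, miR-450a-2-3p -0.87 to 2.31, miR-450a-5p -0.58 to 2.92, miR-450b-5p -1.34 to 2.51, miR-450b-3p -0.15 to 2.10, miR-1a-3p -1.09 to 1.37 and the miR-322-5p seed group -0.31 to 0.48. The miR-351-5p seed group ranged from -0.093 to 0.32, negative without wild-type replicate 2 (-0.044) or knockout replicate 1, and miR-6240 from -3.24 to 0.28, positive without wild-type replicate 2. Libraries of the 2 genotypes share replicate numbers only: same-numbered deviations had r = 0.0091 over 544 miRNAs and 0.115 over the 157 with a mean count of at least 1000. The replicate block gave 5 mature calls, miR-322-5p added (adjusted p = 0.0122), 3 seed groups and 0 arm ratios. MiR-351-3p, miR-217-5p and miR-216b-5p had at most 36 counts in any library, and whether depth kept them from passing was not tested. List medians ranged, with 1 library left out, from -0.43 to 1.26 (erythroid), -0.27 to 0.40 (heart and skeletal muscle) and -0.19 to 0.18 (let-7). Further ranges were -0.20 to 0.35 (miR-30), -0.42 to 0.042 (miR-29), -0.87 to 1.01 (endothelial) and -0.52 to 0.40 (epithelial).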
